A study of Mus musculus with 3 samples.

Results

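The TAM receptors Mertk, Axl, and Tyro3, the phosphatidylserine receptor Timd4 (Tim-4), and the bridging proteins Gas6, Pros1 (protein S), and Mfge8 (MFG-E8) were followed across the 3 stimulation conditions of this series. Members were found as the non-control probes whose gene name on the array equals one of these names, which gave 7 of 34821 gene names and 8 of 55681 probes, with 2 probes for Tyro3 and 1 for each of the others. BMDMs, macrophages grown from the bone marrow of C57BL/6J mice in M-CSF from L929-conditioned medium, were stimulated for 20 h with CpG, with IFN-γ + αIL-10R, or with all of these agents (Triple), and total RNA was hybridized in 1 colour (Cy3) to Agilent mouse arrays. CpG DNA activates TLR9, and αIL-10R, written as IL-10RB in the sample labels, blocks signalling of IL-10 through its receptor. There was 1 array per condition and no array of unstimulated BMDMs, so that the differences below have no replicate check, and the conditions could be compared by size but not tested. IFN-γ and αIL-10R were only given together, so that their effects cannot be told apart. The number of mice behind each RNA is not given in the sources used here.

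Macrophages recognize dying cells by phosphatidylserine, a lipid that healthy cells keep on the inner side of the plasma membrane. Gas6 and protein S bind this lipid through vitamin K-dependent Gla domains and bridge it to the TAM receptor tyrosine kinases, of which all are activated by Gas6, and Mertk and Tyro3 also by protein S. MFG-E8 binds the same lipid and the integrins αvβ3 and αvβ5, while Tim-4 binds it directly. Besides uptake, TAM receptors restrain cytokine and TLR responses, in part through the suppressors Socs1 and Socs3.

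The values below are the signals of 8 probes of 60 bases, and the first 30 bases of each are shown because the probe, and not the whole transcript, was what each array measured. The array design places the probes on mm9 and names the RefSeq transcript of each. Whether a probe lies in coding or untranslated sequence was not analysed here. The Mertk probe (NM_008587) is at chr2:128627867-128627924 on the plus strand, and the Axl probe (NM_009465) is at chr7:26542541-26542600 on the minus strand. The interval given for Mertk is shorter than the 60 bases of its probe. The Tyro3 probes (NM_019392) are at chr2:119642510-119642569 for the first and chr2:119643759-119643818 for the second, and the Timd4 probe (NM_178759) is at chr11:46657173-46657232, all on the plus strand. Among the ligands, the Gas6 probe (NM_019521) is at chr8:13465444-13465503 on the minus strand, the Pros1 probe (NM_011173) at chr16:62928674-62928733 on the plus strand, and the Mfge8 probe (NM_008594) at chr7:86278689-86278748 on the minus strand. The bases are given in the 5′ to 3′ direction in lower case.
Mertk: agcaccaggtgaaagctgtcaagtcaggtt
Axl: ttgagtgtctgagattctaaaggtccacag
Tyro3, first probe: atcaacattgagagagctgagcagcctact
Tyro3, second probe: gcaggctcttgctgttaggaacatttctaa
Timd4: acttcttttcacattcaagtttctttaaag
Gas6: tgggctagaggggctggcagtttgcagcag
Pros1: atcagagacatcaggttatgctgtaagagg
Mfge8: ctctgggtggttgacaggttggctgtggga

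Signals are the processed intensities of the scanner software, before scaling between arrays. A signal was well above background where the software marked it so, which held for 44.4% of the spots on the Triple array, 44.8% on the IFN-γ + αIL-10R array, and 46.0% on the CpG array. The lowest such signal lay between 23.8 and 26.7 on each array. Differences are log2 differences after each array was scaled by its 75th percentile, and a gene was called where it differed more than 2-fold and was well above background on the brighter array. Of the 7 members, 5 were well above background on all 3 arrays, Timd4 on 2, and Tyro3 on none. Of the 9 macrophage markers measured, 8 were well above background on every array, and Cd163 on none. Csf1r read 196810 in CpG, 230482 in IFN-γ + αIL-10R, and 159074 in Triple, and Mrc1 read 5910, 3274, and 76.4. Cd68 was also lowest in Triple (153505, 190933, and 83203). The other detected macrophage markers were not. Cd14 was brightest in Triple (55389, 5534, and 90961), and Emr1, Itgam, Fcgr1, and Mpeg1 lay between the other arrays there.

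In Triple, the signals of Mertk and Timd4 were the highest of the 3 conditions, and those of all 3 ligands were the lowest. Over IFN-γ + αIL-10R, 1 member was called higher (Timd4) and 3 were called lower (Axl, Gas6, and Pros1), where 3.53% of all 33597 genes measured were called higher and 5.00% lower. Over CpG, 2 members were called higher (Mertk and Timd4) and 3 lower (Gas6, Pros1, and Mfge8), against 4.08% and 4.55% of all genes. For CpG against IFN-γ + αIL-10R, 0 members were called higher in CpG and 2 were called lower (Mertk and Axl), against 2.75% and 3.18% of all genes. Among the 15894 genes detected well above background on every array the shares were 5.13% higher and 8.24% lower for Triple against IFN-γ + αIL-10R, and 3.74% and 4.84% for CpG against IFN-γ + αIL-10R. For Triple against CpG, 5.99% of these genes were higher and 1113 were lower. Each pair of these comparisons shares an array, so that an error in 1 array enters both. In such bulk RNA, fewer cells of a type and less RNA per cell cannot be told apart.

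**Figure D1:**
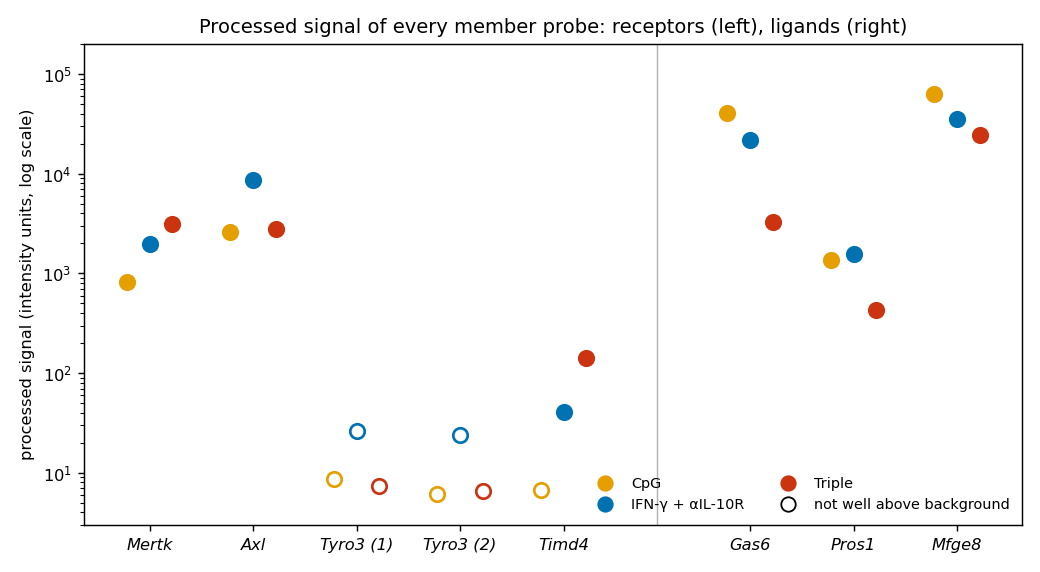
Processed signal (vertical axis, intensity units on a log scale) of each of the 8 member probes (horizontal axis) on the CpG, IFN-γ + αIL-10R, and Triple arrays, 1 point per array, with open circles for signals not well above background. Within each probe, Triple is the highest point for Mertk (3164) and Timd4 (142) and the lowest for Gas6 (3249), Pros1 (428), and Mfge8 (24291). Heights of different probes are not comparable.

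Mertk, the TAM receptor best known for the clearance of apoptotic cells by macrophages, had a signal of 812 in CpG, 1983 in IFN-γ + αIL-10R, and 3164 in Triple. All 3 were well above background, and Triple was the highest. Triple was 4.05-fold higher than CpG (log2 difference 2.02), which placed Mertk 279th from the top of the 15894 genes. Against IFN-γ + αIL-10R, Triple was 1.63-fold higher (0.71), inside the 2-fold threshold, and CpG was 2.48-fold lower (−1.31). The Mertk signal was thus ordered CpG, IFN-γ + αIL-10R, and Triple, each step being larger than the noise between spots of 1 probe, for which the SD of such a difference at this signal was 0.07 to 0.08. Across the 11 alternatives that give a log2 difference, the difference of Triple from IFN-γ + αIL-10R ranged from 0.57 to 0.82.

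Axl, a TAM receptor that is known to be induced by inflammatory stimuli and interferons in macrophages, had a signal of 2604 in CpG, 8609 in IFN-γ + αIL-10R, and 2781 in Triple. It was high in IFN-γ + αIL-10R only. Triple was 3.03-fold lower than IFN-γ + αIL-10R (log2 difference −1.60), and CpG was 3.36-fold lower (−1.75). Triple and CpG differed by 0.15, with a spot SD of 0.08 at this signal and of 0.16 over all replicated probes, and this was the smallest of the measured differences among the members. Mertk and Axl therefore had different profiles: the array with the highest signal was Triple for the former and IFN-γ + αIL-10R for the latter.

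The Axl probe has its spot in row 4 of the array and the Timd4 probe in row 24. Of the genes detected on every array, 8.20% were called lower in Triple than in IFN-γ + αIL-10R when their spot was in the first 48 rows, and 8.18% when it was elsewhere. Of the genes well above background in the brighter array, the shares were 12.4% and 9.35%. For CpG against IFN-γ + αIL-10R they were 9.25% and 5.74%. The median difference of the 115 neighbouring probes of Axl, within 12 rows and columns on each side, was −0.03 for Triple against IFN-γ + αIL-10R and −0.003 for CpG against IFN-γ + αIL-10R. The detected markers of dendritic cells, NK cells, and neutrophils did not share 1 order of the arrays. Like Axl, Clec9a of dendritic cells (5.35, not well above background, 1963, and 152 in CpG, IFN-γ + αIL-10R, and Triple), Klra8 of NK cells (263, 2872, and 448), and Ly6g of neutrophils (555, 7699, and 2658) were brightest in IFN-γ + αIL-10R. The other detected neutrophil markers were not, with 2839, 1615, and 1539 for Elane, 297, 55.7, and 517 for S100a8, 72.9, 17.5 (not well above background), and 139 for Camp, and 58.0, 38.3, and 8.10 (not well above background) for S100a9. Of the other dendritic cell markers, Siglech read 36076, 35974, and 29736, Zbtb46 read 25.1 (not well above background), 36.3, and 133, and Xcr1 was well above background in Triple alone (60.7). The NK markers Ncr1, Klrb1c, Gzma, and Eomes were not well above background on any array (4 of 5), nor were the neutrophil markers Mpo, Prtn3, Ngp, and Ltf (4 of 9) or the dendritic cell markers Flt3, Itgae, and Cd209a (3 of 7). The summed signal ranged from 299 to 2917 for the NK list, from 3860 to 9463 for the neutrophil list, and from 30108 to 38019 for the dendritic cell list. The part of such cells in the Axl signal was not tested.

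Tyro3, the third TAM receptor, which is known mainly from the nervous system, was not well above background in any condition with either probe. The first probe read 8.59, 26.1, and 7.31 in CpG, IFN-γ + αIL-10R, and Triple, and the second 6.18, 23.7, and 6.58, where the value for IFN-γ + αIL-10R carried an outlier mark. No fold is given for it. The transcript was not detectable by these probes, which does not show that it was absent.

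Timd4, a receptor of resident macrophages that tethers apoptotic cells, gave a dim signal of 6.71 in CpG, 40.3 in IFN-γ + αIL-10R, and 142 in Triple. The CpG value was not well above background. Triple was 3.61-fold higher than IFN-γ + αIL-10R (log2 difference 1.85, with a spot SD of 0.31 at such dim signals) and at least 6.22-fold higher than CpG. CpG was at least 1.72-fold lower than IFN-γ + αIL-10R, which does not pass 2-fold. With normexp background correction the difference of Triple from IFN-γ + αIL-10R was 0.86, under the threshold, and that of Triple from CpG was 1.20. Of the genes well above background in the brighter array, 9.08% were called higher in Triple than in IFN-γ + αIL-10R among those with a spot in the first 48 rows, where the Timd4 probe lies, and 6.58% elsewhere. The median difference of its 206 neighbouring probes was 0.004.

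Gas6, the ligand shared by all TAM receptors, had a signal of 40574 in CpG, 21687 in IFN-γ + αIL-10R, and 3249 in Triple. The Triple signal lay far under the other two. Triple was 12-fold lower than CpG (log2 difference −3.59), the 22nd lowest difference of the 15894 genes detected on every array. It was 6.53-fold lower than IFN-γ + αIL-10R (−2.71), the 141st lowest. CpG alone was 1.84-fold higher than IFN-γ + αIL-10R (0.88), so that the signal was lowest where the treatments were combined. Over the 11 alternatives, the difference of Triple from CpG ranged from −3.68 to −3.51 and that from IFN-γ + αIL-10R from −2.84 to −2.59.

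Pros1 encodes protein S, a plasma anticoagulant that also activates Mertk and Tyro3. Its signal was 1369 in CpG, 1558 in IFN-γ + αIL-10R, and 428 in Triple. As for Gas6, Triple was the lowest of the conditions. Triple was 3.56-fold lower than IFN-γ + αIL-10R (log2 difference −1.83) and 3.08-fold lower than CpG (−1.62), with a spot SD of 0.10. CpG differed from IFN-γ + αIL-10R by −0.21 (spot SD 0.08).

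Mfge8, which encodes a secreted bridge between phosphatidylserine and the αv integrins, had a signal of 63047 in CpG, 35450 in IFN-γ + αIL-10R, and 24291 in Triple. It was bright in every condition, and no spot on these arrays was saturated. Triple was 2.50-fold lower than CpG (log2 difference −1.32), and 1.43-fold lower than IFN-γ + αIL-10R (−0.51), inside the threshold. CpG was 1.75-fold higher than IFN-γ + αIL-10R (0.81). The decrease in Triple was thus the smallest among the ligands in both comparisons.

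**Figure D2:**
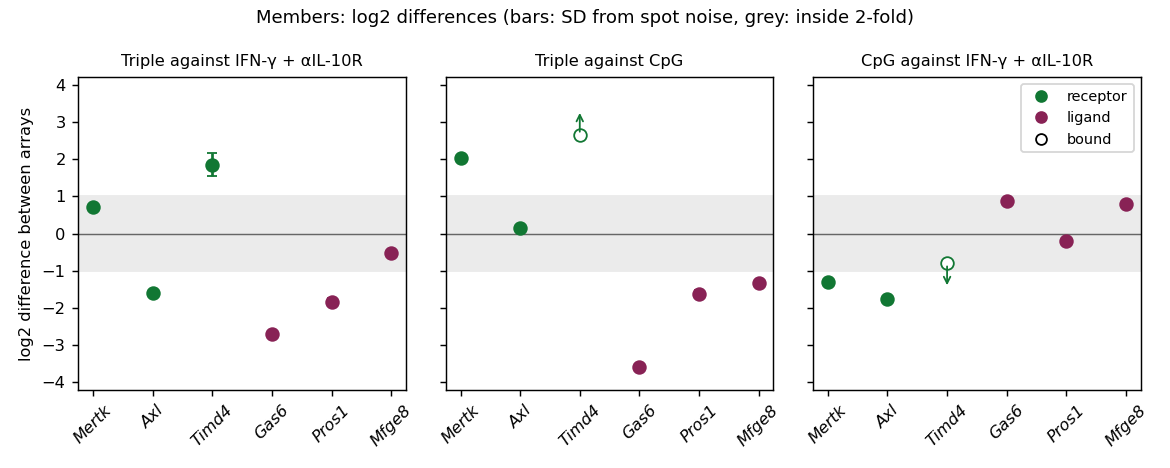
Log2 differences between arrays (vertical axis) of the 6 members with a fold, for Triple against IFN-γ + αIL-10R, Triple against CpG, and CpG against IFN-γ + αIL-10R, with receptors in green and ligands in purple. Bars are the SD expected from noise between spots of a probe, mostly smaller than the symbols, open symbols with arrows are bounds, and the grey band marks differences inside 2-fold. All 3 ligands lie under 0 in both comparisons of Triple, from −3.59 for Gas6 against CpG to −0.51 for Mfge8 against IFN-γ + αIL-10R.

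Receptors and ligands were set against each other by their medians. For Triple against IFN-γ + αIL-10R the median log2 difference was 0.71 over the 3 receptors with a fold (range −1.60 to 1.85) and −1.83 over the 3 ligands (range −2.71 to −0.51). For Triple against CpG the medians were 2.02 (0.15 to 2.64, with Timd4 at its bound) and −1.62 (−3.59 to −1.32). For CpG against IFN-γ + αIL-10R the order was turned, with −1.31 for the receptors (−1.75 to −0.79) and 0.81 for the ligands (−0.21 to 0.88). The corresponding medians over all 15894 genes detected on every array were −0.04, −0.05, and −0.002.

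A receptor's difference minus a ligand's difference is unchanged by a scaling that shifts each array by a constant, since the shift cancels. That does not hold for alternatives that do more than shift an array, such as quantile normalization and normexp correction. In Triple against CpG, the receptor gained on the ligand in 6 of the 6 measured pairs of Mertk or Axl with a ligand, by 1.47 for Axl with Mfge8 up to 5.60 for Mertk with Gas6. The latter is a 48.6-fold change of the ratio of these 2 signals. In Triple against IFN-γ + αIL-10R, where Timd4 could also be measured, this held for 8 of 9 pairs. The exception was Axl with Mfge8 (−1.09), and the value of Axl with Pros1 was 0.23, while Mertk gained 3.41 on Gas6 and Timd4 gained 4.56. In CpG against IFN-γ + αIL-10R the ligand gained on the receptor in all 6 measured pairs (−2.63 to −1.10). Each receptor was paired with each ligand, whether or not they bind. Of the measured pairs, only Mertk with Gas6, Mertk with Pros1, and Axl with Gas6 join a receptor with a ligand known to activate it. The pairs share members and are not independent of each other.

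**Figure D3:**
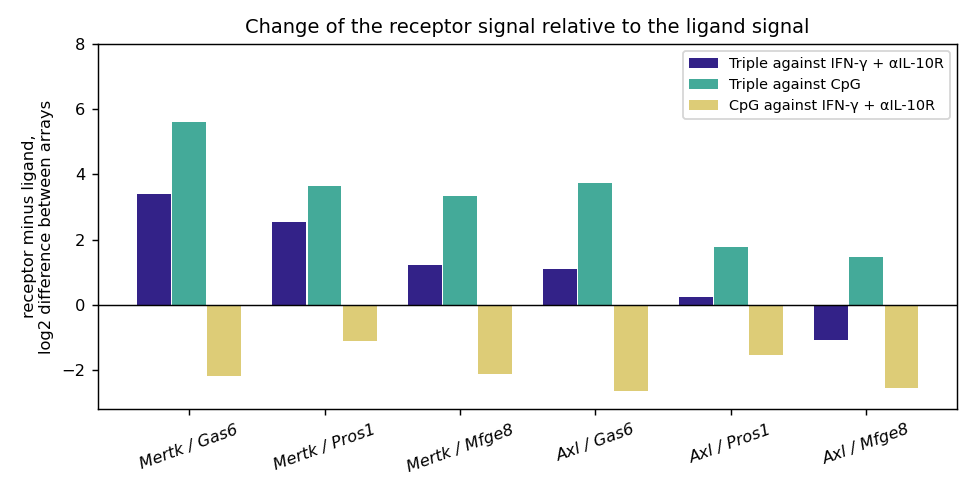
Log2 difference of the receptor minus that of the ligand (vertical axis) for the 6 pairs of Mertk or Axl with Gas6, Pros1, or Mfge8 (horizontal axis), 1 bar per comparison of arrays and no error bars. Bars above 0 mean that the receptor signal gained on the ligand signal. The bars for Triple against CpG are above 0 for all pairs, up to 5.60, and those for CpG against IFN-γ + αIL-10R are all under 0.

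Enzymes and proteases that act on the members formed a list of 8 genes, of which 1 was called higher and 2 lower in Triple against IFN-γ + αIL-10R. Of all genes detected on every array, 5.13% were called higher and 8.24% lower in this comparison. Gas6 and protein S need carboxylation by Ggcx with vitamin K recycled by Vkorc1. Vkorc1 had a signal of 17783 in CpG, 20118 in IFN-γ + αIL-10R, and 7913 in Triple, a log2 difference of −1.32 against IFN-γ + αIL-10R and −1.11 against CpG. Ggcx read 179, 160, and 114, with differences of −0.46 and −0.60 that do not pass 2-fold. Of the proteases that shed TAM receptors from the surface, Adam17 was higher (0.98) and Adam10 lower (2.01-fold) in Triple against IFN-γ + αIL-10R, both so close to 2-fold that the call depended on the setting. Adam10 was called lower here but not with normexp correction, with the 75th percentile over all probes, with median scaling, in the authors' table, or with outlier spots kept, and its difference ranged from −1.14 to −0.89 over the alternatives. Adam17 was not called here but passed 2-fold with the 75th percentile over all probes (1.09), with median scaling (1.08), in the authors' table (1.08), and with quantile normalization. Rhbdf2, a partner of Adam17 in its maturation, was higher in Triple (1.24 and 1.47).

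The integrins that receive MFG-E8 are among 26 other uptake receptors measured, of which 3 were called higher and 5 lower in Triple against IFN-γ + αIL-10R, and 1 higher and 4 lower in Triple against CpG. Itgb5, the β5 chain, read 18808 in CpG, 23952 in IFN-γ + αIL-10R, and 5153 in Triple. It was lower in Triple in both comparisons (−2.19 and −1.81). Itgav, the αv chain, read 399, 921, and 451, which was just inside 2-fold for Triple against IFN-γ + αIL-10R and 0.23 against CpG. It passed 2-fold against IFN-γ + αIL-10R with spike-in scaling (−1.13), without scaling (−1.03), and with outlier spots kept (−1.07), and the last setting turned the difference from CpG to −0.19. Itgb3, the β3 chain, was dim with the probe used, at 303 in CpG and 51.1 in IFN-γ + αIL-10R. Its Triple signal was not well above background. With this probe Triple was called lower than CpG, by at least 11.1-fold (−3.47), and CpG was 5.82-fold higher than IFN-γ + αIL-10R. The second Itgb3 probe read 35.3 in CpG, 5.56 (not well above background) in IFN-γ + αIL-10R, and 38.8 in Triple, so that the probes disagree. Bai1, the array's name for the phosphatidylserine receptor Adgrb1, was well above background only with its second probe in IFN-γ + αIL-10R (43.6).

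Among the other uptake receptors, Cd14, a TLR co-receptor that also binds apoptotic cells, had a difference of 4.07 in Triple against IFN-γ + αIL-10R and 0.77 against CpG. Cd300ld, of the CD300 family of lipid-binding receptors, was 1.61 against IFN-γ + αIL-10R and −0.28 against CpG. Havcr2 (Tim-3), a relative of Timd4, read 698 in CpG, 2392 in IFN-γ + αIL-10R, and 559 in Triple. Triple was lower than IFN-γ + αIL-10R by a log2 difference of −2.07, and like Axl it was brightest in that array.

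Of 19 other bridging proteins and opsonins, 4 were called higher and 1 lower in Triple against IFN-γ + αIL-10R, and 4 higher and 0 lower in Triple against CpG. No gene of this list but C4b was called lower in Triple in either comparison. Thbs1, thrombospondin-1, which links apoptotic cells to CD36 and αvβ3, had a signal of 116 in CpG, 189 in IFN-γ + αIL-10R, and 5446 in Triple, a difference of 4.88 against IFN-γ + αIL-10R and 5.61 against CpG. The complement component C3 read 79788, 29040, and 296775, with 3.38 and 1.95. C4b read 112, 3924, and 949, which was lower than IFN-γ + αIL-10R (−2.02) and higher than CpG (3.14). Edil3, a relative of Mfge8 that also binds phosphatidylserine and αv integrins, was chosen after its values were seen, and read 38.3 in CpG, 10.9 (not well above background) in IFN-γ + αIL-10R, and 258 in Triple. The difference was 2.81 against CpG and at least 3.31 against IFN-γ + αIL-10R.

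Downstream of the receptors, 1 of 18 signalling and feedback genes was called higher and 0 lower in Triple against IFN-γ + αIL-10R, and 3 higher and 1 lower against CpG. Socs1 read 1059 in CpG, 40651 in IFN-γ + αIL-10R, and 50881 in Triple, and Socs3 read 17358, 8207, and 52485. Both feedback genes were thus brightest in Triple, by 0.35 and 2.71 against IFN-γ + αIL-10R and by 5.64 and 1.65 against CpG. Both are also direct targets of cytokine receptors. In the engulfment machinery, 2 of 20 genes were called higher (Rac2, 1.82, and Elmo1, 1.19) and 3 lower in Triple against IFN-γ + αIL-10R, and 0 higher and 2 lower in Triple against CpG. Rac2 and Elmo1 were also higher in CpG than in IFN-γ + αIL-10R (1.60 and 1.18), and Triple differed from CpG by 0.21 for Rac2 and 0.01 for Elmo1, the latter turning to −0.08 with spike-in scaling and −0.04 without scaling. Dock1, the exchange factor that works with Elmo1 to activate Rac, was lower in Triple (−1.47 against IFN-γ + αIL-10R and −1.52 against CpG), as was the lipid transporter Abca1 (−1.41 and −2.08). With normexp background correction the difference of Elmo1 from IFN-γ + αIL-10R was 0.91 for Triple and 0.90 for CpG, both under the threshold.

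Of 15 regulators, 3 were called higher and 2 lower in Triple against IFN-γ + αIL-10R, and 4 higher and 2 lower against CpG. Nr1h3 (LXRα), a nuclear receptor known to induce Mertk and Abca1, read 17776 in CpG, 4388 in IFN-γ + αIL-10R, and 47660 in Triple (3.47 against IFN-γ + αIL-10R and 1.48 against CpG), whereas Nr1h2 (LXRβ) was inside 2-fold in both (0.04, or −0.10 with spike-in scaling and −0.005 with quantile normalization, and 0.70). In Triple against CpG, Mertk was higher (2.02) and Abca1 lower (−2.08), and the part of Nr1h3 in either was not tested. Il10, the cytokine whose receptor was blocked, read 3117, 1271, and 9957. Klf2, a transcription factor that restrains inflammatory activation of myeloid cells, read 1518, 4926, and 683 (−2.82 and −1.10).

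Over all 106 of the 109 listed genes that were measured, 14 (13.2%) were called higher and 13 (12.3%) lower in Triple against IFN-γ + αIL-10R, 13 (12.3%) and 11 (10.4%) in Triple against CpG, and 14 (13.2%) and 10 (9.43%) in CpG against IFN-γ + αIL-10R. The median difference of the 82 listed genes detected on every array was −0.09, 0.006, and −0.04. Genes detected on every array made up 82 of these 106 and 15894 of all 33597, so that the shares among detected genes given above are the closer background.

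**Figure D4:**
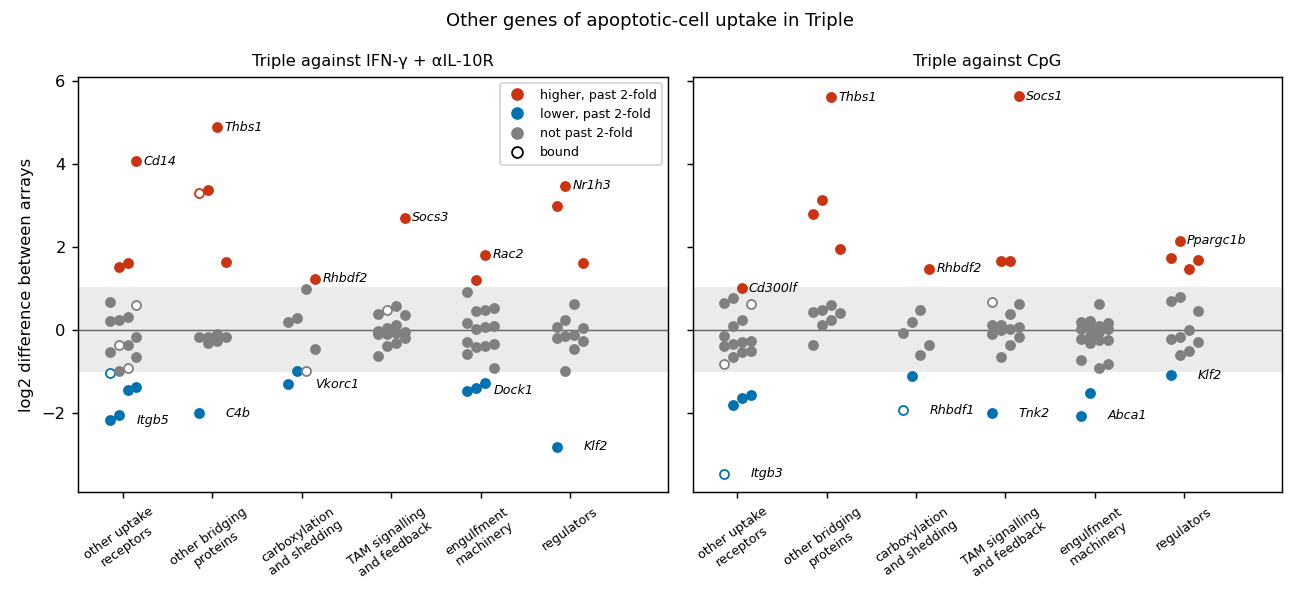
Log2 differences (vertical axis) of the listed uptake genes, by list, for Triple against IFN-γ + αIL-10R and Triple against CpG. Each point is a gene with a fold that is reported here, red and blue points passed 2-fold, open points are bounds, the grey band marks differences inside 2-fold, and the highest and lowest called gene of a list is named. Thbs1 (4.88 and 5.61) is among the highest points of both panels, while Klf2 (−2.82) is the lowest of the left panel.

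The genes with the most similar profiles over the 3 arrays were found by the Euclidean distance between centred log2 values, among 10536 detected genes with a symbol. With 3 arrays a profile has few features, and many genes lay close. For Mertk they were Lass6 (distance 0.07) and Glipr2 (0.08), with 95 genes within 0.5. For Axl they were Tnfrsf12a (0.04) and Kitl (0.09), with 89 genes within that distance. Gas6 had the fewest close genes, 12, led by Scd2 (0.12) and Itga6 (0.14). Pros1 had 398, led by Slc1a5 (0.02) and Espl1 (0.02), and Mfge8 had 499, led by Fbrsl1 (0.02) and Ugt1a10 (0.04).

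Promoters of all 7 members were matched in RefSeq (GRCm38.p6). Motifs were searched in the 250 bases before the start of the gene, for the members and for all promoters alike. A STAT-type motif, TTCNNNGAA, was found only in the Pros1 promoter, 92 bases before the start, and in 7.02% of 32851 promoters. An ISRE-type motif (GAAA, any 2 bases, GAAA) was found in no member and in 2.98% of promoters. An NF-κB-type motif (GGG, any 5 bases, CC) was found in all members but Timd4, and in 45.8% of promoters. A nuclear receptor half-site, AGGTCA, was found only in the Timd4 promoter, 116 bases before the start, and in 14.0% of promoters. Both strands were searched, and a match is a description of the letters and not a site. The 250 bases before the start are shown for Pros1 (chr16:62854057-62854306, plus strand) and Gas6 (chr8:13494536-13494785, minus strand), the ligands with the lowest Triple signals relative to both other arrays, and for Timd4 (chr11:46810549-46810798, plus strand), in lower case with capitals for TTCNNNGAA in Pros1, the NF-κB-type motif in Gas6, and AGGTCA in Timd4.
Pros1: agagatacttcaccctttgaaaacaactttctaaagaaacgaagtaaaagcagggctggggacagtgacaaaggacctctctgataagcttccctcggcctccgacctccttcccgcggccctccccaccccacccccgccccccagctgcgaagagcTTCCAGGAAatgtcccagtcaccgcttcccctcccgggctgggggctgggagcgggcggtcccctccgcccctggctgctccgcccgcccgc
Gas6: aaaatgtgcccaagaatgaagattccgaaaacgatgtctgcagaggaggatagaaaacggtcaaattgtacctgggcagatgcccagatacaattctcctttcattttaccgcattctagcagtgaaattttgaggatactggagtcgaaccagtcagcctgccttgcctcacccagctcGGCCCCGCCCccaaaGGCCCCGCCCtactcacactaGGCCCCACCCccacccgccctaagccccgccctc
Timd4: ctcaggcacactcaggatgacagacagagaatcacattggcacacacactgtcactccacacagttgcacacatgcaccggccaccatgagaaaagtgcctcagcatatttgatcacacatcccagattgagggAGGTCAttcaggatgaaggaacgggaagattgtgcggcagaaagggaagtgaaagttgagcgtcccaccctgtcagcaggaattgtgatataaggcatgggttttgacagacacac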

How the data were processed

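RNA from BMDMs was hybridized to 1 Agilent array per condition. Per the file headers, Agilent Feature Extraction 10.10.1.1 was used and probe positions refer to mm9. The authors deposited the processed signal, an intensity on a linear scale after subtraction of a fitted background and removal of trends across the array. They also deposited a table of log2 values, with column medians of −4.26 (CpG), −4.38 (IFN-γ + αIL-10R), and −4.27 (Triple). Once 1 constant was taken from each array, log2 processed signals equalled at least 99.5% of its values within 0.01, so that scale, centring, and direction were settled, and it was used as an alternative.

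Spots that were controls or that the software marked as outliers were dropped, log2 values of repeated spots were averaged, and arrays were scaled by the 75th percentile of the 21233 probes detected on every array (between 4377 and 4550), because an average of 45.1% of the spots was detected, less than the 50% needed to use all probes. Signals that were not well above background were set to at least the lowest detected signal of the array, and such folds are bounds. Where a gene had several probes, the one with the highest mean was used. The SD of spot noise came from replicated probes within an array, which does not include differences between cultures. The 3 arrays and their signals over background limit the precision.

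The members and lists were chosen with earlier results of these data known. The named genes are all members, the 2 highest and 2 lowest called genes per list for Triple against IFN-γ + αIL-10R, partners, processing enzymes, and regulators named whatever their values, and the 2 closest profiles of each member. Lists of markers of T cells, B cells, stromal cells, endothelium, and erythroid cells were also measured, of which 2 of 7, 2 of 6, 2 of 6, 1 of 5, and 0 of 6 genes were detected on every array. The alternatives were normexp correction (offset 50, limma 3.58.1, R 4.3.3), other scalings, the authors' table, other filters and ways to combine probes, and other thresholds. The code was tested on simulated data. Protein sequences were not used here, and 1 gene of the regulator list is counted but not reported here. Calculations used Python 3.11.15, numpy 2.4.6, and pandas 2.3.3.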

Additional observations from a re-analysis of the deposited data

How the results depend on the processing

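All measured differences of the members kept their direction in the 11 alternatives that give a log2 difference. Among the members with a fold above, calls changed in these for Timd4 only. It went to 0.86 (not called) in Triple against IFN-γ + αIL-10R with normexp background correction. In CpG against IFN-γ + αIL-10R it went to −2.61 (called) without a filter or lower limit. The cause was not tested. With normexp correction 0 members were thus called higher in Triple against IFN-γ + αIL-10R, and the receptor median of Triple against CpG was 1.20. Without a filter or lower limit, where Tyro3 also enters, receptor medians were −0.45 for Triple against IFN-γ + αIL-10R, 1.08 for Triple against CpG, and −1.69 for CpG against IFN-γ + αIL-10R. In that setting 4 members were called lower in Triple against IFN-γ + αIL-10R, where 3 were called above, and 4 in CpG against IFN-γ + αIL-10R. Tyro3, which has no fold above, was among them in both comparisons. When both arrays had to be well above background, 1 member was called higher in Triple against CpG. At 1.5-fold, 2 members were called higher in Triple against IFN-γ + αIL-10R and 2 in CpG against IFN-γ + αIL-10R, and the listed uptake genes called were 20 lower in Triple against IFN-γ + αIL-10R, 22 higher and 19 lower in Triple against CpG, and 22 higher and 18 lower in CpG against IFN-γ + αIL-10R. At 3-fold, 2 members were called lower in Triple against CpG and 1 in CpG against IFN-γ + αIL-10R. The listed genes called at 3-fold were 5 lower in Triple against IFN-γ + αIL-10R, 7 lower in Triple against CpG, and 6 higher in CpG against IFN-γ + αIL-10R. Fewer or more genes follow from the threshold itself. The shares of all genes called under the alternatives are not given here, so that these counts have no background beside them. Other scalings moved the median of all detected genes in Triple against IFN-γ + αIL-10R by 0.11 (75th percentile over all probes, median scaling, and the authors' table) and by −0.13 (spike-ins). No paired analysis was possible because there was 1 array per condition.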
